A study of Mus musculus with 12 samples.

Results

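The comparison set KO against wild type in lineage-negative, c-Kit+ mouse fetal liver cells without surface PIR, the paired immunoglobulin-like receptor. It was drawn from the 6 PIR- libraries, 3 of each genotype by their titles, and from every autosomal gene that reached a value of 10 in 3 or more of the 12 libraries of the series. This left 4395 of the 23420 genes in the deposited table. Of these, 3140 also reached that level within the 6 PIR- libraries, and 1255 passed only through the 6 PIR+ libraries, so their PIR- values are low. The series holds 4 groups of 3 libraries: PIR+ wild type, PIR+ KO, PIR- wild type and PIR- KO. The labelled embryonic day of the PIR- libraries is split unevenly between wild type and KO, as given below. Genotype and labelled stage are therefore partly mixed in this comparison. Each library was made from 100 sorted fetal liver cells with a molecular barcode on every reverse-transcription primer, and ERCC spike-in RNA was added to every tube. The labels name neither the gene knocked out nor the mouse strain, so the targeted gene could not be checked. They also do not say that the libraries of a group came from separate embryos, and every p-value below measures only the spread between these libraries.

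In the fetal liver, blood cells of all lineages arise side by side, and lymphoid progenitors appear there before bone marrow takes over. Precursors of B cells assemble the pre-B receptor from surrogate light chains (Igll1, Vpreb1) and the signalling chains Cd79a and Cd79b, under the transcription factor Ebf1. Less committed progenitors carry CD34, FLT3 and transcripts of the myeloid lineage, and these are shut down as a cell enters the B lineage. Runx transcription factors, which bind DNA together with the partner protein CBFb, act at many of these steps.

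The titles give the PIR sign used here, and other labels disagree with it. Wild-type replicate 1 and KO replicates 2 and 3 are labelled E14.5 and PIR-. Wild-type replicates 2 and 3 and KO replicate 1 are labelled E12.5, and their markers field says PIR+, although their titles say PIR-. The series title speaks of E12.5 (embryonic day) only. The 7 PIR genes in the table, Pira2 and Lilrb3 among them, were listed at 0 in all 6 libraries, as the titles imply. All 6 libraries had Igll1, Vpreb1 and Cd79a, genes of B-cell precursors, and Kit and Il7r, the genes of the sort markers, whereas the series title and the markers field differ on whether PIR- cells carry the IL-7 receptor. Hepatocyte markers summed to 17.1 to 69.5 in wild type and 14.8 to 25.6 in KO, and megakaryocyte and mast cell markers to at most 6.3. Globin messages set 3 of the PIR- libraries apart, and these were the 3 labelled E12.5. Summed over the globin genes, the values were 249.8, 2249.2 and 2389.2 in wild-type replicates 1, 2 and 3 and 2171.9, 53.6 and 56.5 in KO replicates 1, 2 and 3. In PIR+ cells the globin-rich libraries were wild-type replicate 3 (1418.2) and KO replicate 1 (2093.3), both labelled E14.5. The PIR+ libraries labelled E12.5 had 35, 35.7 and 95.2, and PIR+ KO replicate 2, labelled E14.5, had 42.6. High globin thus went with opposite labels in PIR- and PIR+ cells. Whether the label gives the true stage was not tested. Library sums were 155374 to 187525 in wild type and 169949 to 222700 in KO, a ratio of 1.15 with overlapping libraries (exact two-sided permutation p = 0.2, of which 0.1 is the smallest that 3 against 3 can give). A value is a molecule count divided by a factor per library, and 1 molecule is worth about 0.53 to 0.775 in these libraries, so that a value of 10 stands for about 12.9 to 18.9 molecules. In all that follows, library values are given in the order of replicates 1, 2 and 3, fold changes are KO over wild type on the log2(value + 1) scale with the standard error of the limma fit (n = 3 per group), and a gene is called where its Benjamini-Hochberg adjusted p is under 0.05.

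limma called 58 of the 4395 genes (1.32%), 48 higher (1.09%) and 10 lower (0.228%) in KO. The higher genes included markers of uncommitted and myeloid progenitors, such as Cd34, Cd48, Flt3, Mpo and Csf1r, the fetal chromatin gene Hmga2 and the cytokine subunits Ebi3 and Il12a. Most of them started low, as 34 of the 48 had a wild-type mean under 10, and 19 of the 48 passed the filter only through PIR+ libraries, which no lower gene did. The lower genes were Cbfb, Lgals1, Crip1, Ly6e, Gpr56, Lrrc17 and 4 globin genes. The KO and wild-type libraries did not overlap in 678 genes (15.4%), 634 higher (14.4%) and 44 lower (1%), and 611 genes (13.9%) had an unadjusted p under 0.05.

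The deposited scale keeps the difference in library sums, and on it the median gene was 0.20 (log2) higher in KO, with 3411 genes (77.6%) above 0. After median-of-ratios scaling, which brings the median gene close to no change, 77 genes were called (1.75%), 45 higher (1.02%) and 32 lower (0.728%), so the share of calls that were higher went from 82.8% to 58.4%. With the same sign on both scales 43 genes were called (0.978%), 38 higher (0.865%) and 5 lower (0.114%). Each fold change below is on the deposited scale and can be read against that shift of 0.20. In these pools of cells, fewer cells of a type and less RNA per cell cannot be told apart.

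**Figure D1:**
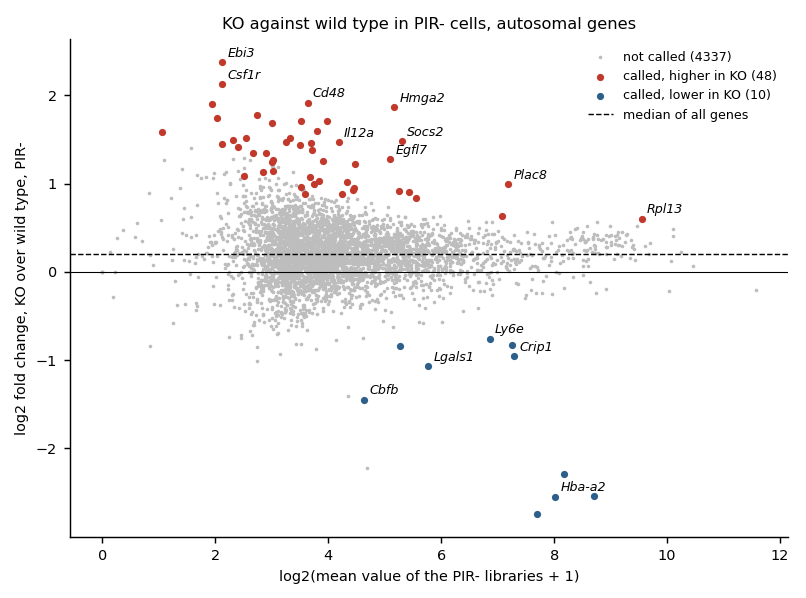
Log2 fold change of KO over wild type in PIR- cells (vertical) against the log2 mean value over the 6 PIR- libraries (horizontal) for the 4395 autosomal genes. Red points are the 48 genes called higher and blue points the 10 called lower; the dashed line is the median of all genes at 0.20, and the 4 blue points lowest on the vertical axis are globin genes.

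Cbfb (chromosome 8, 105170674 to 105217989, GRCm38), which encodes the shared DNA-binding partner of the Runx factors, had values of 36.0, 34.1 and 33.4 in wild type and 6.4, 14.4 and 18.4 in KO. Every KO library lay below every wild-type library, and KO replicate 1 was the lowest. The fold change was -1.45 ± 0.25 (limma adjusted p = 3.79e-05), a mean 2.64-fold lower in KO. It was -2.23 in the libraries labelled E12.5 and -1.10 in those labelled E14.5. Among the 7 tested genes of the list of Runx factors and partners it was the only one called, and the median of the list was 0.03 against 0.20 for all genes. Runx1, a factor needed for definitive blood formation, had values of 29.2, 24.0 and 36.5 in wild type and 37.1, 37.5 and 52.9 in KO, which do not overlap, with a fold change of 0.49 ± 0.22 that was not called (adjusted p = 0.297). Runx3 (0.68 ± 0.35, adjusted p = 0.366) and Runx2 (1.08 ± 0.40, adjusted p = 0.201) were low in PIR- cells, between 0.8 and 6.6. The corepressor gene Tle3, chosen after its values were seen, had a mean of 14.2 ± 1.14 (SD, n = 3) in wild type and 10.6 ± 1.95 in KO and was not called (-0.41 ± 0.26, adjusted p = 0.485).

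The promoters were searched, with the fall of Cbfb known, for the core letters that Runx proteins bind, TGTGGT, or ACCACA when the site lies on the other strand, within 250 bases upstream of a RefSeq gene start (GRCm38.p6). Many genes have several starts in that table, and a match before any of them counted. A window was present for 3512 of the 4395 genes, and 430 of these (12.2%) held the letters at least once. Of the 34 genes called higher that had a window, 4 (11.8%) held them, Cd48, Il12a, Plac8 and Rps6ka1, and of the 7 called lower that had one, 0 did. The stretches of the first 3 of these, from 250 to 51 bases before the start, are shown because these genes recur below; capitals mark the match, and Plac8 holds 2. The Il12a stretch precedes the second of 2 starts and so lies inside the gene as the annotation gives it below. A match says only that the letters are there.
Cd48, chr1:171681742-171681941, plus strand: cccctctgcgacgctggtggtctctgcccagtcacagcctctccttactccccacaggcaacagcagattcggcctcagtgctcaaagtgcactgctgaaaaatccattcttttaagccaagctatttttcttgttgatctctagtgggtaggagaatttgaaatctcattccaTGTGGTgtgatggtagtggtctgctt
Il12a, chr3:68691174-68691373, plus strand: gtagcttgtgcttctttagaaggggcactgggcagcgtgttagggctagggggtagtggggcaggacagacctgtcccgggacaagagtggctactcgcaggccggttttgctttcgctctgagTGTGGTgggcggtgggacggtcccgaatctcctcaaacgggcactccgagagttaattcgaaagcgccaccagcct
Plac8, chr5:100572256-100572455, minus strand: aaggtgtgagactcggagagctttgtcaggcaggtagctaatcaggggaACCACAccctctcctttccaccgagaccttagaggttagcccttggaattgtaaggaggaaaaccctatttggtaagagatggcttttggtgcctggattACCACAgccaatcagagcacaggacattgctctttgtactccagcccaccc

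Besides Cbfb and the globins, 5 genes fell. Lgals1 (chromosome 15, 78926725 to 78930465), which encodes galectin-1, a lectin that binds surface sugars, had values of 67.3, 72.0 and 77.6 in wild type and 26.0, 36.9 and 40.4 in KO. All KO libraries lay below all wild-type libraries, with a fold change of -1.07 ± 0.20 (limma adjusted p = 0.000232). Crip1 (chromosome 12, 113146316 to 113153879), a small LIM-domain protein gene, had values of 175.5, 226.2 and 214.2 in wild type and 84.2, 102.6 and 133.7 in KO. Here too the groups were apart, and the fold change was -0.95 ± 0.19 (adjusted p = 0.000727). It was -1.38 within E12.5 and -0.58 within E14.5, where it was not called (0.306), nor was it without the trended prior (0.0641), in a range of 6.06e-06 to 0.306. These were the only 2 called among 24 tested genes of the cytoskeleton, galectin, S100 and annexin list, whose median was 0.05. Vim, the intermediate filament gene of that list, had values of 54.6, 62.7 and 62.9 against 35.0, 34.6 and 51.4, not overlapping, and was not called on the deposited scale (-0.58 ± 0.22, adjusted p = 0.203) but was after scaling (-0.81, adjusted p = 0.0178, in a range of 0.0106 to 0.774 over the alternatives). Vim was chosen after its values were seen.

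Ly6e, a lipid-anchored surface protein of lymphocytes, had values of 149.0, 130.9 and 152.9 in wild type and 82.1, 73.8 and 100.7 in KO. The groups did not overlap (-0.76 ± 0.19, limma adjusted p = 0.0123). It was not called without wild-type replicate 1 (0.0663) or KO replicate 2 (0.194), in a range of 4.73e-06 to 0.567 over the alternatives. Gpr56, an adhesion receptor gene, had values of 43.5, 52.7 and 48.1 against 28.1, 19 and 34.5, also apart (-0.84 ± 0.23, adjusted p = 0.0409). Its call rested on most of its libraries: the adjusted p was 0.0507, 0.179 and 0.0587 without wild-type replicate 1, 2 or 3, 0.41 without KO replicate 2 and 0.142 with the labelled stage as a term, in a range of 9.69e-05 to 0.838. Lrrc17, a leucine-rich repeat protein gene outside the naming rule, had values of 169.1, 119.8 and 283.5 against 144.9, 46.4 and 149.6. These groups overlapped, and the call (-0.83 ± 0.22, adjusted p = 0.022) was lost after scaling (0.0519), without wild-type replicate 3 (0.186) and without KO replicate 2 (0.63), in a range of 4.7e-07 to 0.999.

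The 4 globin genes were high in 3 libraries of mixed genotype. Hba-a1, an adult alpha-globin gene, had values of 62.6, 481.4 and 604.1 in wild type and 547.3, 14.4 and 18 in KO. The high libraries were the 3 labelled E12.5. The fold changes of Hba-a1, Hba-a2, Hbb-b2 and Beta-s were -2.28 to -2.74 with standard errors of 0.60 to 0.67 (limma adjusted p = 0.0059 to 0.0424). None of the 4 was called after scaling (adjusted p = 0.295 to 0.401) or without KO replicate 2 (0.114 to 0.41) or KO replicate 3 (0.53 to 0.663). Within E12.5 the fold changes were 0.02 for Hba-a1, 0.06 for Beta-s, -0.17 for Hba-a2 and -0.46 for Hbb-b2, and within E14.5 they were -1.90, -2.17, -2.38 and -1.98. With the labelled stage as a term in the fit of all 12 libraries, all 4 were called, at -2.22 to -2.60 (adjusted p = 1.94e-06 to 2.73e-05). That fit shares the term between subsets, while the globin-rich libraries are labelled E12.5 in PIR- and E14.5 in PIR+ cells. With the term in only the 6 PIR- libraries, Hba-a1 (-0.94, limma adjusted p = 0.124) and Beta-s (-1.06, 0.0719) were not called. Hba-a2 and Hbb-b2 stayed called there. Near-identical globin copies can share reads, so the split among them is uncertain. The embryonic globins Hbb-bh1 and Hba-x were listed at 0 in all 6 libraries, and Hbb-y lay between 0.0 and 2.3. In PIR+ cells Hbb-y was 773.1 in KO replicate 1, labelled E14.5, and at most 2.7 in every other library. Alas2, which encodes the first enzyme of heme synthesis in red cells, was 6.2, 5.4 and 7.9 in the 3 libraries labelled E12.5 and 0.0 in the other 3. Other erythroid genes did not split in that way: Car2, a carbonic anhydrase gene, had values of 6.9, 11.6 and 20.2 in wild type and 11.1, 6.3 and 16.2 in KO, and Klf1, an erythroid transcription factor gene, was at most 1.1. Alas2, Car2 and Klf1 were chosen after their values were seen. The part of these cells in the other results was not tested beyond the values within each stage label, given with the results and at the end.

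**Figure D2:**
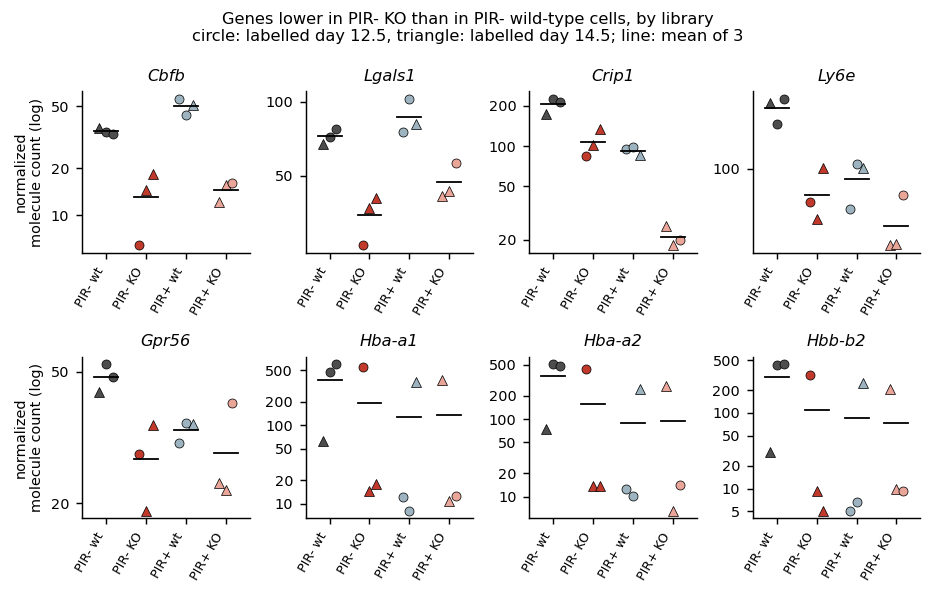
Values of 8 genes called lower in PIR- KO, in all 12 libraries on a log axis (normalized molecule count); circles are libraries labelled E12.5, triangles those labelled E14.5, and lines are means of 3. Cbfb, Lgals1, Crip1, Ly6e and Gpr56 separate PIR- wild type (dark grey) from PIR- KO (red), while in PIR- cells the 3 globin genes separate circles from triangles.

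The genes that define these cells as B-cell precursors did not pass the test. Of 18 tested genes of the B-lineage list, 0 were called in either direction, 8 had a fold change above 0 and 10 below, and the median was -0.03 (-0.25 after scaling) against 0.20 for all genes. Summed over the list, the values were 1238.1 to 1537.8 in wild type and 1182.0 to 1758.8 in KO. Igll1, a surrogate light chain of the pre-B receptor, had values of 233.2, 308.3 and 264.6 in wild type and 185.9, 218.5 and 277.0 in KO (-0.25 ± 0.28, 95% interval -0.79 to 0.29, limma adjusted p = 0.724). The groups overlapped. Its partner Vpreb1 had values of 92.5, 135.2 and 115.2 against 73.6, 79.6 and 103.6 (-0.41 ± 0.32, interval -1.04 to 0.21, adjusted p = 0.574). Cd79a, which relays signals from the B-cell receptor, had values of 174.9, 244.0 and 237.4 against 154.1, 148.8 and 266.7 (-0.24 ± 0.27, interval -0.77 to 0.28, adjusted p = 0.727). In each of the 3 genes KO replicates 1 and 2 lay below the wild-type range. KO replicate 3 lay within it for Igll1 and Vpreb1 and above it for Cd79a.

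Ebf1, the transcription factor that commits cells to the B lineage, was close in all 6 libraries, 15.4, 17 and 15.5 in wild type and 15.4, 16.7 and 14.7 in KO (-0.03 ± 0.40, 95% interval -0.82 to 0.76, limma adjusted p = 0.983). The standard error is that of the fit over all 12 libraries, among which the PIR+ libraries had Ebf1 values of 0.5 to 3.8. Pax5, the factor that maintains B-cell identity, lay between 0.0 and 1.1 and was not tested. Among the 8 tested genes of V(D)J recombination and end joining, which assemble antigen receptor genes, 0 were called (median 0.05). Rag1, a subunit of the recombinase, had values of 56.2, 58.9 and 87.7 against 64.6, 68.0 and 88.2 (0.14 ± 0.24, interval -0.34 to 0.61, adjusted p = 0.841). Lef1, a Wnt-pathway factor of early B and T cells chosen after its values were seen, had values of 41.3, 42.6 and 50.4 against 33.4, 43.2 and 61.7 (0.00 ± 0.37, interval -0.73 to 0.74). Of the sort genes, Il7r had values of 16.4, 20.9 and 19.4 against 24.4, 16.1 and 23.5 (0.15 ± 0.27, adjusted p = 0.839), and Kit had 19.1, 25.6 and 18.6 against 19.1, 21.3 and 34.5 (0.20 ± 0.23, adjusted p = 0.743). In none of these genes did the groups separate, and the intervals give the size of change that these libraries leave possible.

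**Figure D3:**
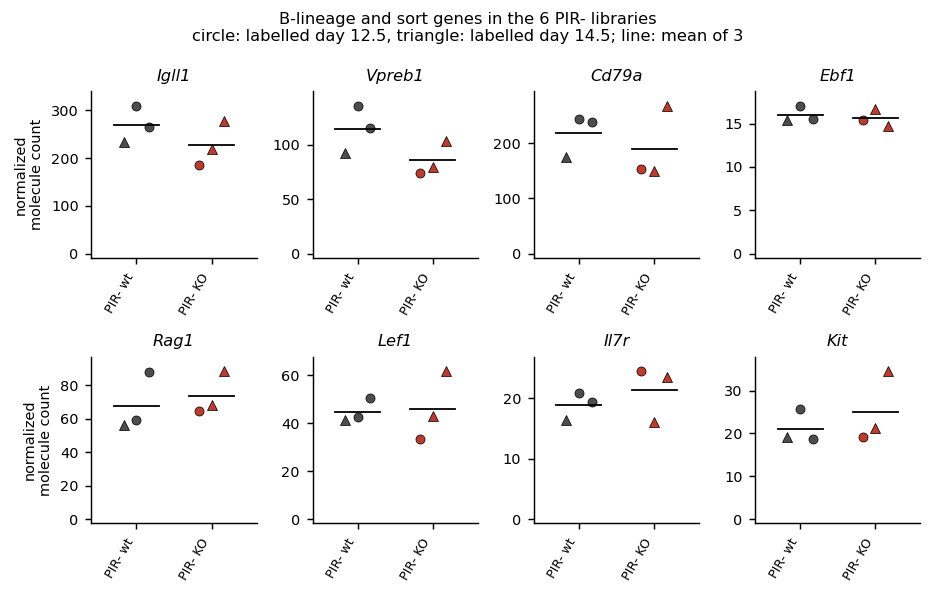
Values of 6 B-lineage genes and of the sort genes Il7r and Kit in the 6 PIR- libraries (vertical, normalized molecule count, from 0; circles E12.5, triangles E14.5; lines are means of 3). In all 8 panels the wild-type and KO libraries overlap.

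Of 11 tested genes of stem cells and multipotent progenitors, 3 were called higher in KO (Cd34, Cd48 and Egfl7) and 0 lower. Of all genes, 1.09% were called higher. The fold change was above 0 in 11 of 11, against 77.6% of all genes. The median was 0.48 (0.35 after scaling) against 0.20 for all genes. That median is the value of Hlf, above 0 only in KO replicate 2 (1.7). After scaling it is that of Mycn, at 0.0 to 2.9 in PIR- cells, so both medians rest on genes near 0. Mycn was chosen after its values were seen. Summed over the list, the wild-type libraries had 99.3 to 113.7 and the KO libraries 168.9 to 211.4, with no overlap. Cd34 (chromosome 1, 194938819 to 194961279), a sialomucin of early progenitors, had values of 8.0, 5.4 and 4.7 in wild type and 19.1, 19 and 21.3 in KO. The 3 KO libraries lay close together and far above the 3 wild-type libraries (1.59 ± 0.21, limma adjusted p = 6.1e-08, a mean 3.28-fold higher). Cd48 (chromosome 1, 171682009 to 171705258), a SLAM-family receptor that marks multipotent progenitors but not most stem cells, had values of 6.9, 2.3 and 3.9 against 18, 13.8 and 23.5. These groups were also apart (1.92 ± 0.30, adjusted p = 3.81e-06, 4.22-fold). Egfl7 (chromosome 2, 26580014 to 26593120), a secreted protein of endothelial cells and progenitors, had values of 16.4, 16.3 and 24.1 against 45.0, 39.2 and 57.3 (1.28 ± 0.21, adjusted p = 9.65e-06, 2.49-fold), again with no overlap. Within the libraries labelled E12.5 and E14.5 the fold changes were 1.74 and 1.23 for Cd34, 2.24 and 1.27 for Cd48, and 1.14 and 1.48 for Egfl7.

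Some members of the same list that mark stem cells more strictly were low in both genotypes. Mecom and Hoxa9, which encode stem-cell transcription factors, were at 0.0 in all 3 KO libraries and at most 1.6 and 0.8 in wild type, and Gata2 was above 0 in a single library, KO replicate 2 (1.2). Hlf, another stem-cell factor gene, was above 0 only in KO replicate 2 (1.7), and Meis1 was 1.5 to 4.2 in wild type and 2.2 to 3.2 in KO (0.21 ± 0.39, limma adjusted p = 0.843). These genes were chosen after their values were seen. Endothelial markers were low or not called: Kdr lay at 0.0 to 0.8, and Pecam1, which blood progenitors share with endothelium, had values of 9.0, 6.2 and 12.4 in wild type and 4.8, 11 and 8.8 in KO (-0.17 ± 0.35, adjusted p = 0.869). The summed endothelial list was 6.2 to 30.3 in wild type and 5.3 to 11.6 in KO. Eltd1, an adhesion receptor gene first described in endothelium and outside the naming rule, had values of 0.0, 2.3 and 0.8 against 4.2, 5.2 and 5.9 and was called (1.74 ± 0.36, adjusted p = 0.000926).

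**Figure D4:**
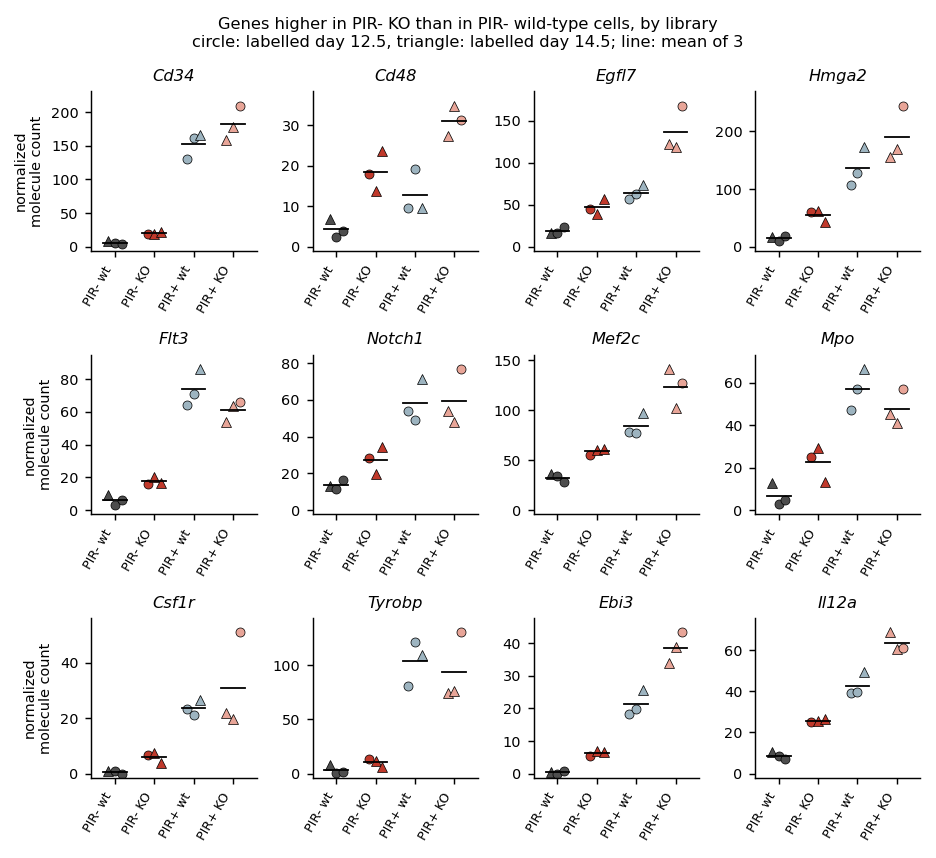
Values of 12 genes called higher in PIR- KO, in all 12 libraries (vertical, normalized molecule count; circles E12.5, triangles E14.5; lines are means of 3). PIR- KO libraries (red) lie above PIR- wild-type libraries (dark grey) in every panel except Tyrobp, where KO replicate 3 (6.6) lies below wild-type replicate 1 (8.0).

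Of the lymphoid progenitor genes, 3 rose. Of 22 tested genes of that list, Flt3, Notch1 and Mef2c were called higher and 0 lower, while 1.09% of all genes were called higher. In 16 the fold change was above 0, against 77.6% of all genes, and the median was 0.13 against 0.20 for all genes. Flt3 (chromosome 5, 147330741 to 147400489), the receptor of a growth factor for multipotent and lymphoid progenitors, had values of 9.5, 3.1 and 6.2 in wild type and 15.9, 20.2 and 16.9 in KO. All KO libraries were higher (1.46 ± 0.25, limma adjusted p = 2.04e-05, 2.82-fold). The fold change was 1.64 within E12.5 and 0.89 within E14.5, where it was not called (0.141), nor was it with the stage as a term in the 6 PIR- libraries alone (0.128), in a range of 1.13e-07 to 0.141. Notch1 (chromosome 2, 26457903 to 26516663), the receptor that directs progenitors to the T lineage, had values of 13.3, 11.6 and 16.3 against 28.6, 19.6 and 34.5, not overlapping (0.93 ± 0.23, adjusted p = 0.0115). Mef2c, a transcription factor of lymphoid-biased progenitors, had values of 36.0, 34.1 and 27.9 against 55.1, 60.5 and 61.7, also apart (0.84 ± 0.20, adjusted p = 0.00549). Notch1 was not called without wild-type replicate 2 (0.0892) or KO replicate 3 (0.207), in a range of 0.00056 to 0.372, and Mef2c not without KO replicate 2 (0.0525), in a range of 0.000489 to 0.541.

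Other lymphoid factors did not pass. Hes1, a Notch target, had values of 18, 19.4 and 17.1 in wild type and 14.8, 21.3 and 17.6 in KO (-0.03 ± 0.29, limma adjusted p = 0.976). Ikzf1, which encodes Ikaros, had values of 40.8, 35.6 and 41.1 against 53.5, 52.5 and 76.4, which do not overlap, and was not called (0.60 ± 0.20, adjusted p = 0.123). Tcf3, the E-protein gene, had 54.6, 66.6 and 76.0 against 59.3, 55.4 and 87.4 (0.02 ± 0.21, adjusted p = 0.983). T-cell, natural killer and innate lymphoid markers were near 0: 9 of 15 were listed at 0 in all 6 libraries, Cd3e among them, Tcf7 lay at 0.0 to 0.5 and Gata3 at 0.0 to 0.8, and the list summed to 1.0 to 2.4 in wild type and 2.1 to 5.1 in KO. Id2, an inhibitor of E proteins that PIR+ cells carry, was 0.0 to 1.6, and Ccr9, a thymus-homing receptor, had 1.1, 1.5 and 3.9 against 2.6, 0.6 and 5.1 (0.15 ± 0.34, adjusted p = 0.879). Hes1, Ikzf1, Tcf3 and Id2 were chosen after their values were seen.

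Of 7 tested genes of the myeloid list, 3 were called higher in KO (Mpo, Csf1r and Tyrobp) and 0 lower, while 1.09% of all genes were called higher. The fold change was above 0 in 7 of 7, against 77.6% of all genes. The median was 1.17 (1.04 after scaling) against 0.20 for all genes. On both scales that median is the value of Prtn3, given below, which was not called and whose groups overlap. The list summed to 33.5 to 72.9 in the wild-type libraries and 77.4 to 114.2 in KO. Mpo (chromosome 11, 87793581 to 87804413), myeloperoxidase of neutrophil granules, had values of 12.7, 3.1 and 4.7 in wild type and 24.9, 29.4 and 13.2 in KO. The lowest KO library lay just above wild-type replicate 1 (1.71 ± 0.27, limma adjusted p = 3.81e-06, 3.29-fold). Csf1r, the receptor for the macrophage growth factor, had values of 1.1, 0.8 and 0.0 against 6.9, 7.5 and 3.7, with no overlap (2.13 ± 0.35, adjusted p = 9.65e-06). Tyrobp, the adaptor DAP12 of activating receptors, had values of 8.0, 0.8 and 1.6 against 13.8, 11.5 and 6.6, which overlap (1.69 ± 0.29, adjusted p = 2.48e-05).

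The fold changes of these 3 genes were larger within E12.5 than within E14.5, a difference that was not tested. Within E12.5 the fold changes were 2.42 for Mpo, 2.56 for Csf1r and 2.77 for Tyrobp, and within E14.5 they were 0.60, 1.59 and 0.12. Without the 3 globin-rich libraries, which is the same set as E14.5, Mpo (adjusted p = 0.341) and Tyrobp (0.87) were not called, in ranges of 1.81e-10 to 0.341 and 1.29e-11 to 0.87. Ncf1, a subunit of the phagocyte oxidase, had values of 2.7, 0.0 and 0.0 in wild type and 4.2, 5.8 and 4.4 in KO (1.90 ± 0.34, limma adjusted p = 4.68e-05), and 2.38 and 0.71 within E12.5 and E14.5. Sfpi1, which encodes the myeloid and lymphoid factor PU.1, had values of 9.0, 7.7 and 10.1 against 13.2, 16.1 and 19.1, not overlapping and not called (0.78 ± 0.24, adjusted p = 0.0792). Here the fold change was smaller within E12.5 (0.53) than within E14.5 (0.89). Prtn3, also of the myeloid list, had values of 5.8, 1.5 and 0.8 against 6.9, 10.4 and 2.9, which overlap. It was not called (1.17 ± 0.36, adjusted p = 0.0899), nor were Irf8 (0.03 ± 0.29, and -0.18 after scaling) and Fcer1g (0.44 ± 0.46). Within E12.5 the fold changes of Prtn3, Irf8 and Fcer1g were 1.90, 0.66 and 1.21, and within E14.5 -0.03, -0.69 and -0.20. Some genes of later myeloid stages, though not Prtn3, stayed at or near 0. Ctsg was listed at 0 throughout, Elane lay at 0.0 to 1.7, S100a8 at 0.0 to 0.5 and Lyz2 at 0.0 to 1.3. Macrophage markers summed to at most 9.7 in wild type and 1.2 in KO, and C1qb was listed at 0. Sfpi1, Prtn3, Irf8, Fcer1g, Ctsg, Elane, S100a8, Lyz2 and C1qb were chosen after their values were seen.

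The next 7 called genes belong to no list and were put together after their values were seen, so they give no count for a group. All of them but Plac8 are outside the naming rule. Serpinb1a, an inhibitor of neutrophil proteases, had values of 4.2, 1.5 and 2.3 in wild type and 10.6, 6.3 and 7.3 in KO (1.34 ± 0.28, limma adjusted p = 0.00114). It was 2.01 within E12.5 and 0.58 within E14.5, and was not called within E14.5 (0.412) or with only the 6 PIR- libraries (0.127), in a range of 6.9e-05 to 0.412. Dok2, an adaptor that dampens receptor signalling in blood cells, had values of 2.7, 3.9 and 3.1 against 9.0, 10.4 and 9.6 (1.34 ± 0.26, adjusted p = 0.000232). Gpr171, an orphan receptor gene of blood cells, had values of 2.1, 3.9 and 7.0 against 13.2, 13.3 and 11.8 (1.47 ± 0.27, adjusted p = 8.96e-05). Dok2 and Gpr171 were not called within E12.5 (0.253 for each) or with only the 6 PIR- libraries (0.0647 and 0.062), in ranges of 7.44e-06 to 0.253 and 5.47e-07 to 0.253. In all 3 genes the groups were apart. Sirpa (1.13 ± 0.29), Plek (1.45 ± 0.34) and Pstpip1 (1.49 ± 0.39), signalling proteins of phagocytes and platelets, were called too (adjusted p = 0.0189, 0.00643 and 0.0194), and each lost the call without KO replicate 3 (0.198, 0.0588 and 0.163). Plek and Pstpip1 also lost it without KO replicate 2 (0.0525 and 0.0683), Pstpip1 without wild-type replicate 3 (0.193), and Sirpa without wild-type replicate 1 or 2 (0.102 and 0.0642), in ranges of 0.00497 to 0.956 for Sirpa, 0.000507 to 0.268 for Plek and 4.34e-05 to 0.97 for Pstpip1. Plac8 (chromosome 5, 100553725 to 100572245), a cysteine-rich protein gene of progenitors and myeloid cells whose upstream stretch is shown above, had values of 103.4, 77.5 and 107.9 against 168.4, 182.2 and 224.8, with no overlap (0.99 ± 0.18, adjusted p = 5.3e-05).

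The 2 subunits of the cytokine IL-35 rose together. Ebi3 (chromosome 17, 55952640 to 55957022), the beta subunit shared with IL-27 and outside the naming rule, had values of 0.5, 0.0 and 0.8 in wild type and 5.3, 6.9 and 6.6 in KO. It had the largest fold change of the genes called higher, 2.38 ± 0.33 (limma adjusted p = 1.19e-07). Il12a (chromosome 3, 68690644 to 68698547), the alpha subunit shared with IL-12, had values of 10.6, 8.5 and 7.0 against 24.9, 25.4 and 26.5 (1.47 ± 0.23, adjusted p = 3.81e-06). In both genes the 3 KO libraries were alike and stood clear of wild type. The fold changes within E12.5 and E14.5 were 2.23 and 2.37 for Ebi3 and 1.57 and 1.22 for Il12a.

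Of 14 tested cytokine and chemokine receptor genes, Flt3, Csf1r and Ifnar2 were called higher and 0 lower (median 0.26). Ifnar2, a chain of the type I interferon receptor, had a mean of 6.97 ± 2.66 (SD, n = 3) in wild type, with a highest library of 8.5, and of 14 ± 2.86 in KO, with a lowest library of 12.2, so the groups were apart (0.96 ± 0.26, limma adjusted p = 0.0349). It was not called after scaling (0.16), without wild-type replicate 3 (0.196) or without KO replicate 2 (0.298) or 3 (0.0665), in a range of 0.00235 to 0.759. Of 9 tested JAK-STAT genes, which relay cytokine signals, Socs2 was called. The median of the list was 0.44, with 7 of 9 above 0, against 77.6% of all genes. Socs2 (chromosome 10, 95385362 to 95417180), a feedback inhibitor of cytokine and growth hormone signalling, had values of 18, 17.8 and 23.3 against 51.4, 49.6 and 70.5, a wide gap (1.48 ± 0.33, adjusted p = 0.00273, 2.9-fold). Its adjusted p was 0.0966 without KO replicate 3, in a range of 5.71e-06 to 0.956. Cish, a related inhibitor, lay at 1.1 to 3.1 in wild type and 1.7 to 2.9 in KO. Pim1, a kinase gene induced by STAT5, had 12.7, 12.4 and 11.6 against 19.6, 18.5 and 19.1, which do not overlap. It was not called (0.60 ± 0.28, adjusted p = 0.321). Cish and Pim1 were chosen after their values were seen.

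Hmga2 (chromosome 10, 120361275 to 120476469), a chromatin protein of fetal stem cells and a target repressed by let-7, had values of 16.4, 9.3 and 18.6 in wild type and 59.8, 62.3 and 43.3 in KO. The lowest KO library stood well clear of the highest wild-type library. The fold change was 1.87 ± 0.21 (limma adjusted p = 9.93e-11, 3.73-fold), the smallest adjusted p of the comparison, and 2.10 and 1.61 within E12.5 and E14.5. In the list of the fetal Lin28b program, 8 of 8 tested genes had a fold change above 0 on the deposited scale, against 77.6% of all genes. The median of the list was 0.39 (0.24 after scaling). Hmga2 was the only gene of that list called. Its relatives in that list were not called: Igf2bp2 had values of 5.3, 2.3 and 6.2 against 6.4, 6.9 and 11 (0.74 ± 0.31, adjusted p = 0.263), Igf2bp3 19.6, 23.2 and 24.1 against 29.1, 24.2 and 30.1 (0.30 ± 0.22, adjusted p = 0.541), and Hmga1 152.9, 166.9 and 167.6 against 182.7, 207.6 and 230.7 (0.34 ± 0.17, adjusted p = 0.362). Igf2bp1 had values of 20.4, 27.1 and 31.0 against 18.5, 30.0 and 38.2, which overlap (0.10 ± 0.23, adjusted p = 0.882). After scaling its fold change was -0.12. These 4 relatives were chosen after their values were seen. The KO libraries lay above all wild-type libraries in 4 of the 8 genes, Hmga2 included, as they did in 14.4% of all genes. Lin28b itself, which blocks let-7 in fetal cells, had values of 7.4, 7.7 and 6.2 against 5.3, 7.5 and 10.3 and did not pass the filter. The imprinted fetal transcript H19 had values of 204.6, 228.5 and 349.2 against 265.9, 281.4 and 459.9 (0.36 ± 0.19, adjusted p = 0.387).

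Of the cell cycle genes, 1 was called. Of 42 tested genes of DNA replication and 55 of mitosis, 0 were called, with medians of 0.10 in each list, under the 0.20 of all genes. Mki67, a marker of cycling cells, had values of 62.6, 80.6 and 76.8 in wild type and 68.3, 58.2 and 91.1 in KO (-0.03 ± 0.21, limma adjusted p = 0.969). Of 14 tested cell cycle control genes, Ccnd1 was called. Ccnd1 (chromosome 7, 144929931 to 144939925), a D cyclin that drives entry into S phase, had values of 4.8, 3.1 and 7.8 against 11.7, 17.3 and 16.9, with no overlap (1.44 ± 0.25, adjusted p = 2.57e-05, 2.92-fold). Its relatives were not called on this scale: Ccnd2 had values of 16.4, 4.6 and 10.1 against 12.2, 18.5 and 16.9 (0.70 ± 0.27, adjusted p = 0.214), and Ccnd3 had 170.2, 178.1 and 240.5 against 129.2, 151.1 and 214.5 (-0.27 ± 0.19, adjusted p = 0.542). After scaling Ccnd3 was called lower (-0.49, adjusted p = 0.0166, in a range of 0.0166 to 0.903). Ccnd2 belongs to the differences between subsets given below, and Ccnd3 was chosen after its values were seen. Sesn1, a stress-responsive inhibitor of mTORC1 signalling, had values of 9.5, 6.2 and 7.8 against 18.5, 17.3 and 24.2, apart (1.25 ± 0.26, adjusted p = 0.00108).

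The level of ribosomal protein genes depended on the scale. All 79 tested cytosolic ribosomal protein genes had a fold change above 0 on the deposited scale, against 77.6% of all genes, and in 47 of them KO lay above wild type without overlap, against 14.4% of all genes. The median was 0.34. After scaling the median was 0.12, against -0.0027 for all genes. A single member was called, Rpl13 of the large subunit, with values of 570.4, 579.3 and 625.4 in wild type and 770.6, 925.4 and 1020.5 in KO (0.60 ± 0.16, limma adjusted p = 0.0297). Its call was lost without wild-type replicate 1 or 2 (0.154 and 0.127), without KO replicate 2 or 3 (0.191 and 0.229), without PIR+ wild-type replicate 2 (0.0622) and with the labelled stage as a term (0.0935), in a range of 3.79e-05 to 0.999. Processed copies of such genes are frequent, so reads may be shared. Among mitochondrial ribosomal proteins 1 of 71 was called (Mrps10, 0.99 ± 0.28, adjusted p = 0.0424), with values of 7.4, 6.2 and 10.1 against 11.1, 20.8 and 19.1. Mrps10 was not called after scaling (0.0651) or without wild-type replicate 1 or 2 (0.111 and 0.216), KO replicate 2 or 3 (0.339 and 0.254), PIR+ KO replicate 1 (0.0502) or PIR+ wild-type replicate 2 (0.0546), in a range of 0.000562 to 0.999. In the lists of the proteasome (45 tested), respiratory chain (73), translation factors and tRNA synthetases (68), splicing (66), chaperones (29), glycolysis (14), chromatin (26), histones (11), purine and pyrimidine metabolism (18), cholesterol synthesis (8), the Bcl2 family (10), p53 targets (2) and imprinted growth genes (2), 0 genes were called.

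Of 10 tested interferon response genes, 1 was called: Ifitm3, a membrane protein that restricts viral entry, had values of 2.7, 2.3 and 0.8 in wild type and 5.3, 5.8 and 8.8 in KO (1.42 ± 0.34, limma adjusted p = 0.00731). Its call was lost without wild-type replicate 3 (0.0655) or KO replicate 3 (0.147), in a range of 0.00202 to 0.491. Ifi203, a member of the interferon-inducible HIN-200 family whose copies are alike, had values of 11.9, 11.6 and 18.2 against 20.1, 30.6 and 33.1 (0.96 ± 0.22, adjusted p = 0.00457) and was not called without KO replicate 2 (0.0668) or 3 (0.0844), in a range of 2.74e-05 to 0.999. In both genes the groups were apart. Emb, an immunoglobulin-superfamily chaperone of lactate transporters, had values of 12.2, 10.1 and 14.7 against 27.5, 25.9 and 24.2 (1.02 ± 0.22, adjusted p = 0.00224). Ramp1, a coreceptor for the neuropeptide CGRP, had values of 15.9, 13.2 and 8.5 against 28.6, 29.4 and 30.9 (1.22 ± 0.24, adjusted p = 0.000292). In Emb and Ramp1 the KO libraries lay close together and above all wild-type libraries. Of 13 tested genes of adhesion and homing 0 were called (median 0.40), and Itga4, an integrin chain chosen after its values were seen, had 42.9, 39.5 and 52.0 against 67.3, 64.0 and 77.1 (0.63 ± 0.20, adjusted p = 0.114).

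Zfp36l2, an RNA-binding protein that promotes decay of AU-rich messages and the only gene called among 8 of the immediate early and stress list, had values of 26.5, 26.3 and 23.3 in wild type and 47.1, 46.1 and 52.9 in KO, well apart (0.91 ± 0.20, limma adjusted p = 0.00312). Gimap6, a lymphocyte GTPase and 1 of 5 tested Gimap genes, had values of 6.4, 2.3 and 3.1 against 7.9, 12.1 and 10.3 (1.24 ± 0.28, adjusted p = 0.00457), and lost the call without wild-type replicate 2 (0.0846) or KO replicate 2 (0.0713), in a range of 0.000191 to 0.572. Its groups did not overlap. Ctsl, the lysosomal protease cathepsin L, had values of 6.4, 5.4 and 7.0 against 18, 17.3 and 18.4 (1.38 ± 0.33, adjusted p = 0.0088, and 0.0525 and 0.071 without KO replicate 2 or 3, in a range of 0.00188 to 0.669). Cdh17, an intestinal-type cadherin also found on B cells, was listed at 0 in all wild-type libraries and at 1.6, 1.2 and 3.7 in KO (adjusted p = 0.0123, and 0.244 without KO replicate 3, in a range of 1.77e-05 to 0.567), for which no fold is given. Rere, a chromatin repressor gene with values of 27.0, 22.5 and 36.5 against 49.8, 42.1 and 73.5 (0.91 ± 0.23, adjusted p = 0.0139), lost its call without wild-type replicate 1 or 2 (0.0515 and 0.173) or KO replicate 3 (0.32), in a range of 0.000664 to 0.933. Ctsl, Cdh17 and Rere are outside the naming rule, as are 11 more genes called higher, which had fold changes of 0.63 to 1.78: Bms1, Cdk19, Chchd2, Ckap4, Cmah, Dlgap4, Exosc6, Mgat1, Ptgs1, Rps6ka1 and Slc16a6. Each of these 11 lost its call when some PIR- library was left out. After scaling, Cdk19, Ckap4, Cmah, Exosc6, Mgat1, Ptgs1 and Rps6ka1 were not called (limma adjusted p = 0.0583 to 0.179).

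The effect of KO in PIR+ cells was measured in 6 other libraries. There limma called 38 of the 4395 genes (0.865%), 17 higher (0.387%) and 21 lower (0.478%). Called in both subsets with the same sign were 7 genes, 12.1% of the PIR- calls and 18.4% of the PIR+ calls, and 0 were called with opposite signs. Among them were Cd48, Egfl7 and Eltd1, higher in both, and Cbfb, Crip1 and Lgals1, lower in both. Across the 4395 genes, which are not independent replicates, the fold changes of the 2 subsets correlated at r = 0.128 (rho = 0.0856). Of the 48 genes higher in PIR- KO, 36 had a PIR+ fold change above 0, with a median of 0.25 in PIR+ against 1.34 in PIR-, the comparison that chose them. Cbfb had values of 55.8, 44.1 and 50.8 in PIR+ wild type and 12.1, 15.7 and 16 in PIR+ KO (-1.72 ± 0.25, adjusted p = 6.65e-07), and its change did not differ between subsets beyond error (0.27 ± 0.36, adjusted p = 0.982). The changes of Lgals1 in PIR+ (-0.87 ± 0.20, adjusted p = 0.0079), of Egfl7 (1.06 ± 0.21, adjusted p = 0.000482) and of Cd48 (1.29 ± 0.30, adjusted p = 0.00602) were of similar size, with differences between subsets of -0.20 ± 0.29, 0.21 ± 0.29 and 0.62 ± 0.42.

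The difference between the 2 KO effects was called for 25 genes (0.569%), 21 positive (0.478%) and 4 negative (0.091%), and 13 of the 58 PIR- calls were among them, 11 of these higher in PIR- KO. Mpo rose in PIR- KO and had values of 47.0, 57.2 and 66.4 in PIR+ wild type and 45.4, 41.1 and 57.0 in PIR+ KO (-0.24 ± 0.27), a difference of 1.95 ± 0.38 (limma adjusted p = 0.00109). Flt3 had 64.1, 71.0 and 86.1 against 53.9, 63.7 and 66.2 in PIR+ (difference 1.72 ± 0.35, adjusted p = 0.00198). Hmga2 (difference 1.39 ± 0.30, adjusted p = 0.00518) and Cd34 (1.34 ± 0.30, adjusted p = 0.00776) had PIR+ fold changes of 0.48 ± 0.21 and 0.25 ± 0.21 that were not called. Cd34 had values of 130.1, 162.4 and 166.1 in PIR+ wild type and 159.3, 177.3 and 209.9 in PIR+ KO, so the PIR- KO libraries at 19 to 21.3 stayed well below. Crip1 fell in both subsets, by 2.09 on the log2 scale in PIR+, and the difference was 1.14 ± 0.27 (adjusted p = 0.0143).

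**Figure D5:**
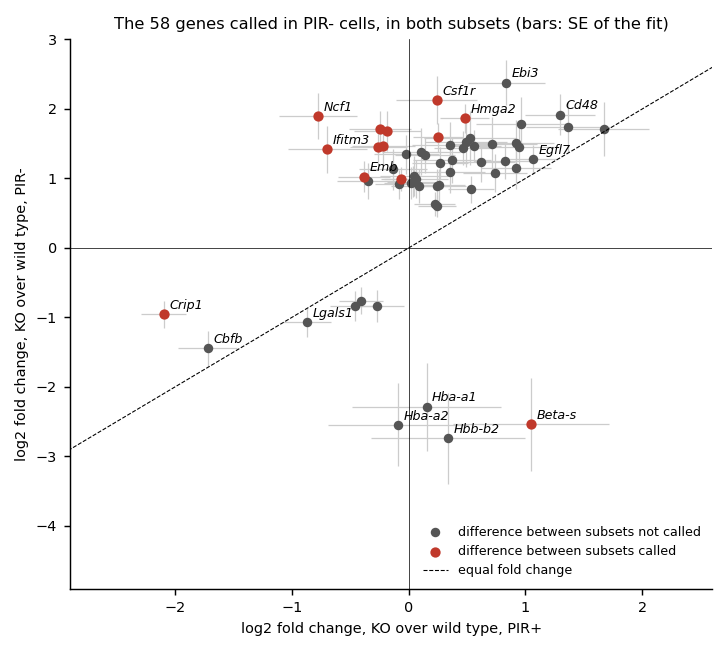
Log2 fold change of KO over wild type in PIR- cells (vertical) against that in PIR+ cells (horizontal) for the 58 genes called in PIR-; grey bars are standard errors of the fit, the dashed line marks equal fold changes, and red points are the 13 genes whose difference between subsets was called. Cd48, Egfl7, Cbfb and Lgals1 lie near the line, and most genes higher in PIR- KO lie near 0 on the PIR+ axis.

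The labelled stage crosses the genotypes unevenly, with 1 wild-type and 2 KO libraries at E14.5 and 2 and 1 at E12.5, so each gene was also compared within a stage label, where the lone library is assumed to vary like the others. In the libraries labelled E14.5 all 48 higher and all 10 lower genes kept their sign, 28 of the 58 were still called, and the higher genes had a median fold change of 1.22. Besides those given above, Cbfb (adjusted p = 0.0847), Cd48 (0.0655), Lgals1 (0.167), Emb (0.0847), Ramp1 (0.158), Sesn1 (0.133), Socs2 (0.0929), Ncf1 (0.324), Zfp36l2 (0.126), Mef2c (0.167) and Notch1 (0.126) were among those not called in these 3 libraries. In those labelled E12.5 all 48 higher genes and 8 of the 10 lower kept it, with Hba-a1 and Beta-s as the exceptions, 14 were still called, and the median was 1.17. With the stage as a term in the fit of all 12 libraries, 49 of the 58 were still called, and 19 with only the 6 PIR- libraries. The median over all genes was 0.38 within E14.5 and -0.02 within E12.5. Of single libraries, KO replicates 2 and 3 carried the most calls, as 36 genes were called without the former and 32 without the latter, against 54 to 87 without any other. Without each of the 6 PIR- libraries in turn, 24 of the 58 kept their call: Cbfb, Crip1 and Lgals1 among the lower genes, and 21 of the higher, Cd34, Cd48, Egfl7, Flt3, Hmga2, Mpo, Csf1r, Ebi3 and Il12a among them. No called gene changed sign when any 1 of the 12 libraries was left out. Cd34, Csf1r, Ebi3, Hmga2 and Il12a were called with the same sign under all 30 alternatives tried. Csf1r and Ebi3 stayed under 10 in every PIR- library and passed the main filter only through PIR+ libraries. No alternative applied that filter within the PIR- libraries alone.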

How the data were processed

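The 12 libraries hold RNA of 100 sorted mouse fetal liver cells each. The deposited table gives signal values: numbers of molecules after division by a library factor, rounded to 1 decimal by the authors. Per the labels, cDNA was primed with oligo-dT carrying a molecular barcode, and the same amount of ERCC RNA went into every tube for normalization. TopHat2, DESeq2 and mm10 are named in the submitters' processing notes without versions, and the counting step is not given in the sources used here. In the PIR- libraries, 91.9% to 94.2% of values under 15 lie within 0.055 of a multiple of 1 step, so whole counts were not recovered. That step puts the PIR- libraries at an estimated 208195 to 326322 molecules. The number of per-sample columns left unmapped was 0.

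Groups came from the titles. limma 3.58.1 (R 4.3.3) was fitted with a trended prior to log2(value + 1) of all 12 libraries, with 4 group means, for the 4542 genes that reached 10 in 3 or more libraries. Benjamini-Hochberg adjustment ran over these, and the 4395 on autosomes were kept: 136 lie on chromosome X, 1 of them called, and 11 could not be placed. Symbols were placed with GENCODE (4322) or RefSeq (210) on GRCm38. Sums per library were compared by exact permutation tests (20 permutations). The fit was tested on simulated data. Python 3.11.15, pandas 2.3.3 and matplotlib 3.10.9 were used.

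Genes were named by this rule: up to 12 called per direction whose higher group averaged 20 or more and whose groups did not overlap, by fold change; up to 4 called per list; a set named whether or not called (Cbfb, the Runx, B-lineage, sort and globin genes and some others); and up to 5 per direction with the largest called difference between subsets. The comparison, the 39 gene lists and this rule were chosen with earlier results of these data known. Alternatives were other scalings, added constants of 0.1 and 5, other filters, only the PIR- libraries, no trend, a weight per library, a replicate block, the labelled stage, and each library left out. The labelled stage with scaling was added after seeing the data. Of the genes called higher, 1 is counted but its result is not reported here.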

Additional observations from a re-analysis of the deposited data

Results flagged for a closer look

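The effect of KO differed between PIR- and PIR+ cells in the limma interaction term for 25 autosomal genes, and 22 of these are named in the text or here. A positive value means a higher fold change in PIR- cells. Among genes called higher in PIR- KO the difference (log2) was 2.67 for Ncf1, 2.12 for Ifitm3, 1.95 for Mpo, 1.89 for Csf1r, 1.87 for Tyrobp, 1.72 for Flt3, 1.69 for Gpr171, 1.4 for Emb, 1.39 for Hmga2, 1.34 for Cd34 and 1.05 for Plac8. Crip1, lower in both subsets, had 1.14, and the globin gene Beta-s, whose PIR- values follow the labelled stage, had -3.59.

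The other genes were called in PIR+ and not in PIR- cells. Cd7, a surface marker of early T and natural killer cells, had a difference of 3.8 and was at 14.9 to 21.6 in PIR+ wild type but at most 0.8 in any PIR- library. Ifitm1 had 3.25, with PIR- values of 1.6, 2.3 and 3.1 in wild type and 3.2, 5.2 and 11 in KO (1.05 ± 0.34, limma adjusted p = 0.119). Cd79a had 2.09, from a fall in PIR+ at values of at most 8.9. The remaining values were 2.17 for Tsc22d1, 2.07 for Ccnd2 and 1.29 for Tfrc, the transferrin receptor gene, and -2.51 for Mmrn1, -1.8 for Gimap4 and -1.13 for Pnp, purine nucleoside phosphorylase.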

How the results depend on the processing

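The 58 calls became 30 with every gene above 0 tested, 27 with only the 6 PIR- libraries, 36 without the trended prior, 286 with a weight per library, 20 with the labelled stage and only PIR- libraries, and 17 within the libraries labelled E12.5. Leaving out 1 library gave 32 (without PIR- KO replicate 3) to 87 (without PIR- wild-type replicate 3), and 36 without PIR- KO replicate 2. Scaling gave 77. The 25 differences between subsets became 38 after scaling to the mean sum, 3 with every gene tested, 3 without the trend, 142 with weights and 15 without the globin-rich libraries. They were 14 (without PIR+ wild-type replicate 2) to 32 with 1 library left out. The median fold change of 0.203 became -0.0027 after scaling and -0.016 within E12.5. Within E12.5 Hba-a1 (0.0213) and Beta-s (0.0601) changed sign. The cause of these shifts was not tested, beyond the fewer libraries or other genes that some settings use. Deviations of same-numbered PIR- wild-type and KO libraries correlated at -0.103, -0.0391 and 0.0181, so the numbers do not pair the PIR- libraries across genotypes. Whether they pair PIR+ with PIR- libraries of a genotype was not tested. The replicate block, which called 202 genes (192 higher, 10 lower, and 54 of the 58), is given only here. DESeq2 was not run, because the values are not whole counts. Values under 10 rest on fewer than about 19 molecules, which limits the low genes.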
